A study of Mus musculus with 12 samples.

Results

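Gonadal fat of male FVB mice was compared between arrays labelled as Cav1 knockout and arrays labelled as wild type. Cav1 encodes caveolin-1, and the 6 fat arrays are 6 of the 12 arrays in the series, whose other 6 are livers of mice 12 weeks old with the same pair of labels. The arrays were taken by their labels: 3 from knockout-labelled gonadal white adipose tissue (GWAT, the pad attached to the epididymis in males) and 3 from wild-type-labelled GWAT, all from mice 8 weeks old. All mice were anaesthetised with ketamine and xylazine before collection. The targeted allele is not described in the labels, and nothing there ties the 3 replicates to 3 animals; the p-values below thus rest on the scatter among these arrays, part of which may be technical. The knockout is of the whole animal as far as the labels go, with no cell type named.

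Caveolae are small flask-shaped pits of the plasma membrane, and fat cells carry more of them than almost any other cell. Caveolin-1 and the cavins build their coat, and without caveolin-1 adipocytes lack caveolae. In mice, whole-body loss of caveolin-1 is known for lean, lipodystrophy-like fat depots. The comparison asks which transcripts of the depot change with loss of caveolin-1, and the measured level of Cav1 itself decides in which direction that question can be read.

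Every array held 45281 probes, and values are given as deposited intensities, on a linear scale with no background subtracted. A probe counted as above background when it exceeded the 95th percentile of the olfactory, vomeronasal and trace amine receptor probes of its array, an intensity of 70.4 to 73.8 on the fat arrays. Between 44.8% and 48.6% of probes passed on each fat array. The tested set was the 18147 probes that carried 1 gene symbol and exceeded background on 3 or more of the 6 arrays. They stood for 11563 genes, each represented by its brightest tested probe. The fat arrays correlated at 0.9819 to 0.9924 within a label and at 0.9671 to 0.9816 between labels, and the first principal component, with 53.5% of the variance, placed the 3 knockout-labelled arrays on one side and the 3 wild-type-labelled arrays on the other.

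Individual arrays also differed in transcripts of the male ducts that run beside this depot. The most variable gene within labels was Gpx5, a secreted glutathione peroxidase of the epididymis, which read 66.3, 972 and 3951 on the knockout-labelled replicates 1, 2 and 3, against 63.0, 248 and 1976 on the wild-type-labelled ones. Wild-type-labelled replicate 1 stood apart for another set of duct genes: Ces5a, a carboxylesterase secreted by the epididymis, read 56.9, 69.6 and 219 on the knockout-labelled arrays, against 3009, 63.7 and 111 on the wild-type-labelled arrays. Adam7, a sperm-binding protein of the same epithelium, read 144, 377 and 613 on knockout-labelled arrays, against 2342, 458 and 549 on wild-type-labelled arrays. The summed background-corrected intensity of the 13 measured epididymis and duct markers was 754, 2600 and 6828 on the knockout-labelled replicates 1, 2 and 3, against 7667, 3206 and 4005 on the wild-type-labelled ones. It was lowest on knockout-labelled replicate 1 and highest on wild-type-labelled replicate 1, and the labels overlapped. None of the 13 markers passed a limma adjusted p of 0.05 between labels, at values from 0.0971 for Cst11 to 0.842 for Defb12. Without wild-type-labelled replicate 3 the fit called 4 of them lower, without knockout-labelled replicate 3 it called 1 lower, and without knockout-labelled replicate 1 it called 2 higher. For the genes and lists below, arrays whose omission ended a named call or moved a count by more than 1.5 times are named.

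Cav1 ran against the labels on all 6 fat arrays. Its single probe read 14598, 15114 and 17476 on the knockout-labelled arrays, against 112, 108 and 111 on the wild-type-labelled arrays. The means were 15729 ± 1535 and 110 ± 2.26 (SD, n = 3 each), a ratio of 143, and the wild-type-labelled values were still above the background threshold on 3 of 3 arrays. After background correction the log2 difference, knockout-labelled minus wild-type-labelled, was 7.87 (SE 0.09, 95% interval 7.68 to 8.05, limma adjusted p = 2.01e-13). With 3 arrays against 3, the exact two-sided permutation test over the 20 arrangements gave p = 0.1, which is the smallest it can give. In liver the same probe followed the labels: it read 110, 117 and 113 on the knockout arrays, below background on 3 of 3, against 172, 167 and 210.4 on the wild-type arrays. In GWAT a positive difference therefore means higher in the arrays labelled knockout and, equally, higher in the arrays with high Cav1; a reader who takes the Cav1 level as the guide reads every direction below as Cav1-high against Cav1-low. Whether the fat labels were exchanged was not tested, since no other file used here ties an array to an animal.

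**Figure D1:**
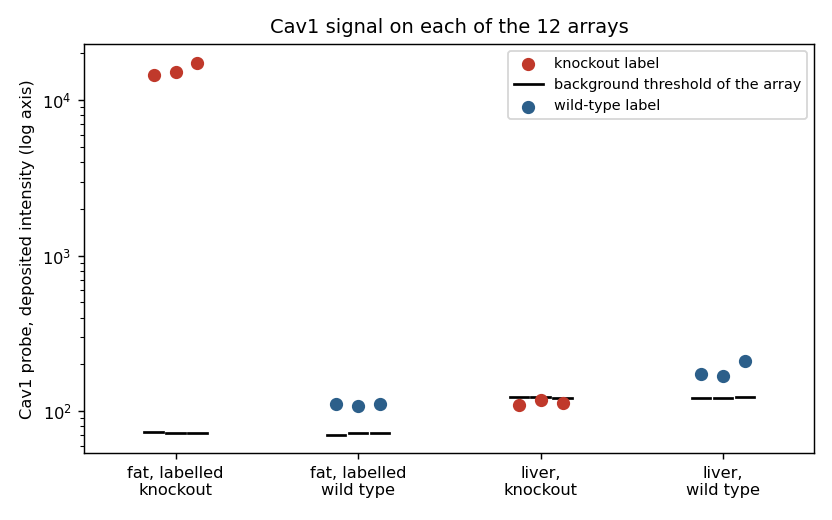
Deposited intensity of the Cav1 probe on a log axis for each of the 12 arrays (points), in knockout-labelled and wild-type-labelled fat and in knockout and wild-type liver, with the background threshold of each array as a black bar. The 3 knockout-labelled fat arrays sit between 14598 and 17476, far above the 3 wild-type-labelled ones at 108 to 112, while in liver the knockout arrays lie under their threshold and the wild-type arrays above it.

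The other parts of the caveola coat differed far less than Cav1. Of 10 measured caveola genes, Cav1 included, 2 were called higher, Cav1 itself and Cav2, and 2 lower, Cavin1 and Cavin3. A call is a limma adjusted p under 0.05, and 24.8% of all genes were called. Cav2, the partner of caveolin-1 in the coat, read 3667, 3673 and 3748 on knockout-labelled arrays, against 2055, 2494 and 2916 on wild-type-labelled arrays (log2 0.59, SE 0.11, adjusted p = 0.00266). Cavin1, the cavin needed for caveolae to form, went the other way, at 4075, 3719 and 5058 against 6311, 6481 and 6421 in the same order (log2 -0.60, SE 0.10, adjusted p = 0.00161), and its second probe read a log2 difference of -1.04 (adjusted p = 6.46e-06). Cavin3, a further coat protein, was lower as well (log2 -0.35, SE 0.07, adjusted p = 0.00378). For these 3 genes the arrays of the labels did not overlap. Cavin2 read 9351, 7373 and 8399.7 on knockout-labelled arrays, against 7652, 9269 and 9514 on wild-type-labelled arrays, with overlapping values (log2 -0.07, adjusted p = 0.647). Ehd2, the ATPase at the caveola neck, gave a log2 difference of -0.06 on its brightest probe (adjusted p = 0.722), and Cavin4, a cavin of muscle, 0.23 (adjusted p = 0.362). Another Ehd2 probe was called lower (-0.32, adjusted p = 0.0229), while dimmer ones at -0.02 and -0.04 were not called. The membrane-bending Pacsin1, Pacsin2 and Pacsin3 gave -0.04, 0.13 and 0.31 (adjusted p 0.897, 0.397 and 0.127), and Pacsin3 was called higher without wild-type-labelled replicate 1 and with array weights (adjusted p 0.0458 and 0.0468, and 0.0899 to 0.305 under the other settings). Cav3, the muscle caveolin, did not pass the background filter.

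Genes flanking Cav1 on chromosome 6 were looked at apart, because Cav1 is the targeted gene. The genes listed start between -5406 and 4679 kb from Cav1. The part of the targeted locus in their calls was not tested. Among the 20 measured genes nearest to Cav1, 10 on each side, 7 were called higher and 1 lower, against 12.6% and 12.2% of all genes. Those called higher whichever array was left out were Cav2, the adjacent gene, Ndufa4, a subunit of the respiratory chain (log2 0.34, SE 0.06, adjusted p = 0.00248), and the unnamed transcript 2610001J05Rik (log2 0.71, SE 0.13, adjusted p = 0.00313). Met, the receptor of hepatocyte growth factor and the next measured gene on the other side, read 99.5, 107 and 113 on knockout-labelled arrays, against 135, 148 and 157 on wild-type-labelled arrays, and was lower without overlap (log2 -0.72, SE 0.14, adjusted p = 0.0047). The calls of Tmem168, Mdfic, Lsm8 and Tspan12, at log2 differences of 0.51, 0.76, 0.30 and 0.41, were each lost without wild-type-labelled replicate 2, Mdfic also without knockout-labelled replicate 3, and Tmem168 and Lsm8 without any array except wild-type-labelled replicate 3. Their adjusted p-values ranged over 0.0239 to 0.709, 0.0049 to 0.0694, 0.0104 to 0.104 and 0.00502 to 0.0549 under the settings tried. Of the 588 genes tested on chromosome 6, 30.1% were called, the highest share of any chromosome, against 20.6% on chromosome 11, the lowest.

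Between labels 2867 of the 11563 genes were called: 1461 (12.6%) higher in knockout-labelled arrays and 1406 (12.2%) lower. Counts of list members are to be read beside these shares and the 24.8% called in either direction. The unadjusted p was under 0.05 for 4363 genes, and the 3 and 3 arrays did not overlap for 4752 genes (41.1%), among them 2831 of the called genes. Lack of overlap thus adds little to a call in the paragraphs below. Most differences were modest, with a median absolute log2 difference of 0.49 among called genes, and a change of 2-fold or more was reached by 82 of the genes called higher and 141 of those called lower. At 4-fold or more these numbers were 15 and 13. By the background threshold alone, 35 of the 11563 genes were above background on all 3 knockout-labelled arrays and on 0 wild-type-labelled ones, and 68 genes showed the reverse. Such genes passed the filter through 1 label only, and no call was required. Some lay close to the threshold: S100a9 averaged 77.0 on knockout-labelled arrays, against 64.5 on wild-type-labelled arrays. The median log2 difference over all genes was 0.01. The number of called genes fell to 1670 without knockout-labelled replicate 2, 1904 without knockout-labelled replicate 3 and 1718 without wild-type-labelled replicate 2, and was 2533 to 2718 without any of the others. Counted by probe, 4122 (22.7%) were called, 2073 (11.4%) higher and 2049 (11.3%) lower, and 7148 (39.4%) had no overlap. Different probes of a gene did not always move together: of 1696 genes with several tested probes and a call, 1293 had all probes of 1 sign and 19 had probes called in opposite directions.

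**Figure D2:**
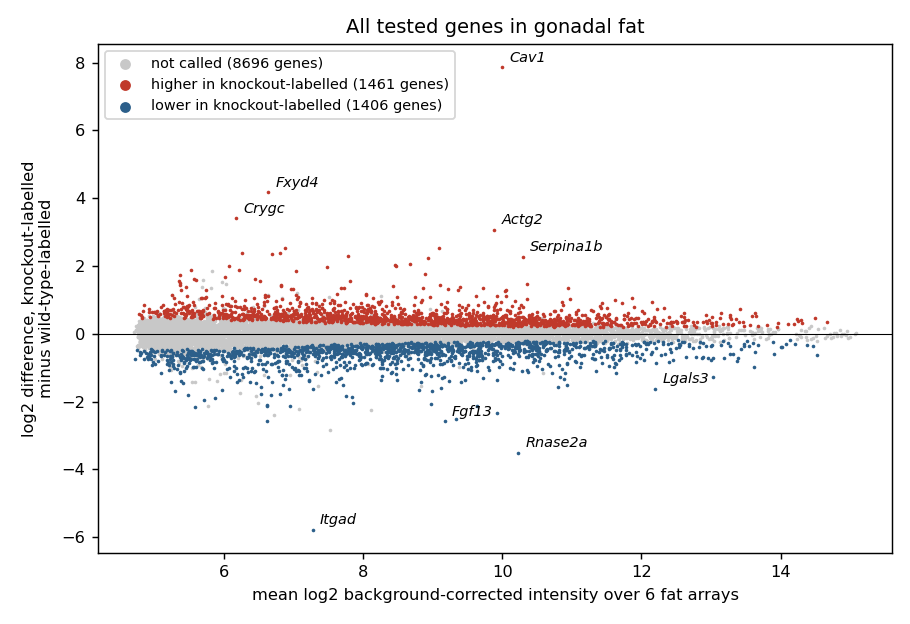
Log2 difference (knockout-labelled minus wild-type-labelled) against the mean log2 background-corrected intensity over the 6 fat arrays, 1 point for each of 11563 genes, red for the 1461 called higher, blue for the 1406 called lower and grey for the rest. Cav1 stands alone at 7.87 and Itgad lies lowest.

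After Cav1 the largest rises were a mixed set of epithelial, muscle and secreted genes. The 15 rises and 15 falls given here were picked from called genes whose labels did not overlap. Their lack of overlap thus was set by that rule, and 41.1% of all genes did not overlap either. Fxyd4, a regulator of the sodium pump in kidney duct epithelium, read 683, 599.9 and 256 on the knockout-labelled arrays, against 72.6, 58.9 and 53.2 on the wild-type-labelled arrays, of which 1 was above background (log2 4.17, SE 0.34, adjusted p = 1.48e-05). Crygc, a lens crystallin, read 335, 368 and 180.1 on knockout-labelled arrays, against 63.3, 61.7 and 56.1 on wild-type-labelled arrays, where it was below background on all 3. Its rise was at least 3.909-fold (adjusted p = 1.17e-05), a bound that sets the knockout-labelled mean against the background threshold of the wild-type-labelled arrays, in deposited intensity, as for every such bound below. Actg2, the gamma-actin of visceral smooth muscle, read 3909, 3740.0 and 1483 on knockout-labelled arrays, against 425, 319 and 377 on wild-type-labelled arrays (log2 3.06, SE 0.30, adjusted p = 4.91e-05). In these 3 genes the third knockout-labelled array was lower than the other two yet still above every wild-type-labelled array. The same held for Aqp2, the water channel of collecting ducts (log2 2.39, SE 0.37, adjusted p = 0.000992), Kif5c, a neuronal kinesin (log2 2.38, SE 0.29, adjusted p = 0.000231), Ank1, an ankyrin of the red cell and muscle membrane skeleton (log2 2.34, SE 0.27, adjusted p = 0.000152), and Cldn4, a tight junction protein (log2 1.98, SE 0.36, adjusted p = 0.00276). For these 7 of the 15 largest rises, knockout-labelled replicate 3 differed from the mean of replicates 1 and 2 by -1.49 to -1.02 on the log2 scale. With robust eBayes the calls of Aqp2 and Cldn4 were lost (adjusted p = 0.0502 and 0.0669, against at most 0.00967 and 0.019 under every other setting tried).

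The other 8 rises, Cav1 among them, had knockout-labelled replicate 3 above the mean of the other two. Serpina1d, one of the mouse alpha-1-antitrypsin genes, read 1127, 1352 and 1626 on knockout-labelled arrays, against 269, 310.4 and 239 on wild-type-labelled arrays (log2 2.52, SE 0.14, adjusted p = 1.63e-06). Serpina1b, its close relative, read 2558, 2715 and 3216 on knockout-labelled arrays, against 550.3, 656 and 645 on wild-type-labelled arrays (log2 2.28, SE 0.10, adjusted p = 2.21e-07). Probes of the Serpina1 copies can read each other's transcripts, so these are not independent observations. Cox8b, the cytochrome c oxidase subunit used in brown fat and striated muscle, read 1024, 1089.8 and 1205 on knockout-labelled arrays, against 233, 342 and 248 on wild-type-labelled arrays (log2 2.23, SE 0.15, adjusted p = 4.1e-06). Tnnc2, the troponin C of fast skeletal muscle, read 539, 467 and 599 on knockout-labelled arrays, against 127, 134 and 169 on wild-type-labelled arrays (log2 2.31, SE 0.16, adjusted p = 4.64e-06). In these 4 genes no knockout-labelled array came near the wild-type-labelled range. Ppp1r1a, an inhibitor of protein phosphatase 1 (2.06), Bmp3, a bone morphogenetic protein family member (2.04), and Krt14, a keratin of basal epithelium (2.01), completed the set, at adjusted p-values of 3.64e-06, 1.72e-06 and 0.000596.

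The largest falls were led by genes of leukocytes. Itgad, the alpha D chain of a leukocyte integrin, read 59.1, 54.6 and 56.7 on the knockout-labelled arrays, all below background on this probe, against 1141, 1139 and 1310.4 on the wild-type-labelled arrays. On this probe it was at least 16.4-fold lower (adjusted p = 7.9e-11). Its 3 other tested probes read log2 differences of -5.44, -2.63 and -0.72, and the last of them was above background on all 3 knockout-labelled arrays. Rnase2a, a ribonuclease of the eosinophil-associated family, read 314, 478 and 427 on knockout-labelled arrays, against 3562, 4153 and 4649 on wild-type-labelled arrays (log2 -3.51, SE 0.15, adjusted p = 1.79e-07). On these brightest probes the labels lay far apart for both genes. Fgf13, an intracellular relative of the fibroblast growth factors, read 216, 318 and 322 on knockout-labelled arrays, against 1397, 1459 and 1521 on wild-type-labelled arrays (log2 -2.58, SE 0.16, adjusted p = 2.35e-06), though 1 of its 3 probes was not called (-0.32, adjusted p = 0.151). Thbs1, thrombospondin-1, a matrix glycoprotein that activates TGF-beta, read 301, 313 and 326 on knockout-labelled arrays, against 1599, 1659 and 1495 on wild-type-labelled arrays (log2 -2.51, SE 0.08, adjusted p = 1.25e-08). Kcnj15, an inwardly rectifying potassium channel, read 442, 429 and 405 on knockout-labelled arrays, against 1779.8, 1683 and 1694 on wild-type-labelled arrays (log2 -2.13, SE 0.08, adjusted p = 2.94e-08). For Thbs1 and Kcnj15 the arrays of each label lay within a narrow band, far apart from the other label.

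The remaining falls included keratinocyte, plasma protein and signalling genes. Krt79, a keratin of skin and its glands, read 429, 448 and 561 on knockout-labelled arrays, against 1731, 2405 and 2703 on wild-type-labelled arrays (log2 -2.35, SE 0.16, adjusted p = 4.1e-06). Cdsn, corneodesmosin, an adhesion protein of the outer epidermis, read 76.1, 88.9 and 88.8 on knockout-labelled arrays, against 249, 298 and 307 on wild-type-labelled arrays (log2 -2.56, SE 0.16, adjusted p = 3.24e-06). Orm2, the acute phase protein orosomucoid 2, read 244, 305 and 328 on knockout-labelled arrays, against 1116, 1178 and 968 on wild-type-labelled arrays (log2 -2.08, SE 0.13, adjusted p = 2.78e-06). All 3 were lower on every knockout-labelled array, as the rule of choice required. Fosb, an AP-1 transcription factor subunit (-2.14), Apoc4, an apolipoprotein (-2.14), Fam83a, a signalling scaffold (-2.09), Slc9b2, a sodium/proton exchanger (-2.05), Saa1, serum amyloid A1 (-1.97), and Ldb3, a Z-disc protein of striated muscle (-1.91), were also lower, with adjusted p-values from 5.53e-06 for Slc9b2 to 8.47e-05 for Saa1. The dimmest Ldb3 probe, near background, was not called (-0.04, adjusted p = 0.916). Col28a1, a collagen chain below background on every knockout-labelled array, was at least 2.001-fold lower (adjusted p = 1.08e-05). The call of every gene in the 15 largest rises and the 15 largest falls was kept with each array left out in turn.

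**Figure D3:**
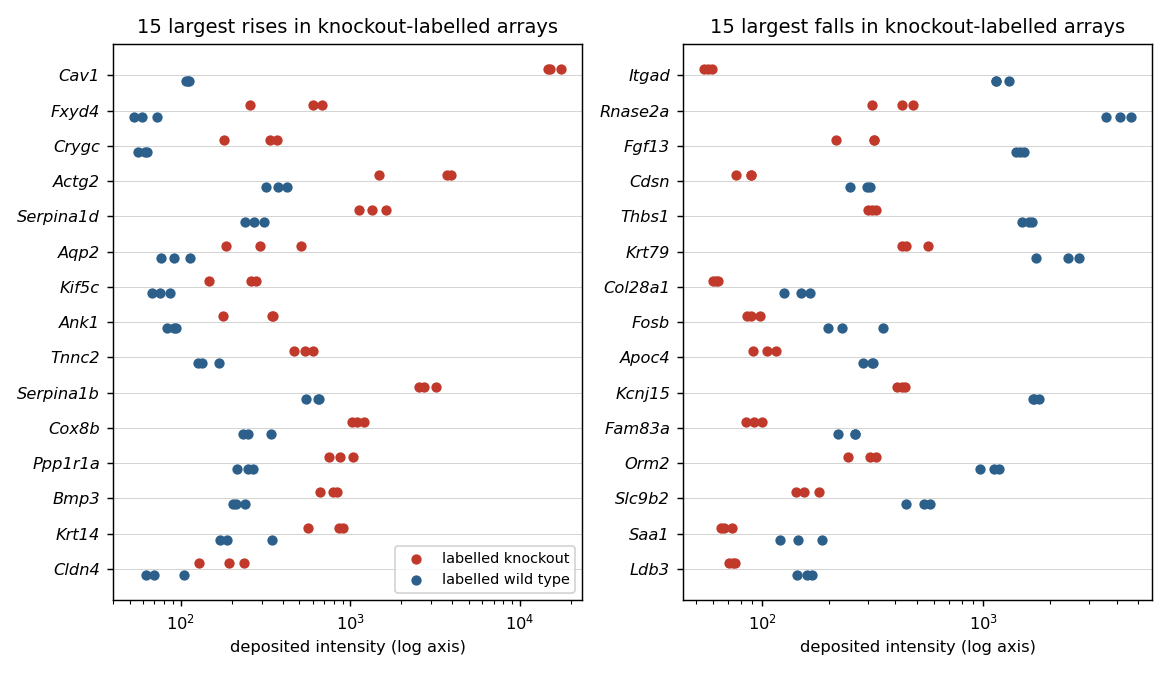
Deposited intensity on a log axis of the 15 genes with the largest rises (left) and the 15 with the largest falls (right), with the 3 knockout-labelled arrays in red above the 3 wild-type-labelled arrays in blue for each gene. Genes were picked only where the labels do not overlap, and the knockout-labelled points spread widest for Fxyd4, Actg2 and Aqp2.

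Genes of the mitochondrial energy supply stood higher in the knockout-labelled arrays, which are those with high Cav1, and 0 members of the respiratory chain, the citric acid cycle or fatty acid oxidation were called lower. Of 33 measured subunits of complex I, which takes electrons from NADH, 20 rose (60.6%, against 12.6% of all genes), with a median log2 difference of 0.34 over the list against 0.01 over all genes. Of 33 subunits of complexes II to V, 23 rose (69.7%), with a median of 0.26. Ndufs4, an assembly-critical subunit of complex I, read 5351, 5194 and 5208 on knockout-labelled arrays, against 3398, 3562 and 3438 on wild-type-labelled arrays (log2 0.61, SE 0.06, adjusted p = 6.85e-05). Ndufb8, another complex I subunit, read 11349, 11483 and 10686 on knockout-labelled arrays, against 7556, 7045 and 7457 on wild-type-labelled arrays (log2 0.61, SE 0.06, adjusted p = 8.42e-05). Both were higher on all 3 arrays with no overlap. Sdhb, which carries the iron-sulfur clusters of complex II, read 1648, 1618 and 1873 on knockout-labelled arrays, against 1016, 919 and 963 on wild-type-labelled arrays (log2 0.85, SE 0.08, adjusted p = 4.9e-05). A dim Sdhb probe near background was not called (0.34, adjusted p = 0.178). Atp5a1, the alpha subunit of ATP synthase, rose on its brighter probe (log2 0.90, SE 0.19, adjusted p = 0.00612) and was called lower on its other probe (-0.59, adjusted p = 0.0086). The mean of its probes was not called (adjusted p = 0.482, against 6.67e-04 to 0.0337 under the other settings tried). Summed over the list, complex I subunits read 147049 to 151260 on knockout-labelled arrays, against 120914 to 122957 on wild-type-labelled arrays, in background-corrected intensity. The number of complex I calls was 13 without wild-type-labelled replicate 2 and that of complexes II to V was 12, 14 and 14 without knockout-labelled replicate 2, knockout-labelled replicate 3 and wild-type-labelled replicate 2.

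Genes of fuel oxidation upstream of the respiratory chain were higher as well. Branched-chain amino acid breakdown had the largest shift of these lists: 14 of 18 measured genes rose (77.8%), with a median log2 difference of 0.54. Acadsb, the dehydrogenase of short branched acyl-CoA, read 416, 397 and 577 on knockout-labelled arrays, against 267, 233 and 281 on wild-type-labelled arrays (log2 0.93, SE 0.15, adjusted p = 0.00149). Mccc2, a subunit of the carboxylase in leucine breakdown, read 509, 406 and 475 on knockout-labelled arrays, against 272, 252 and 263 on wild-type-labelled arrays (log2 0.93, SE 0.11, adjusted p = 0.000189). Dbt, the transacylase core of the branched-chain ketoacid dehydrogenase, read 1304, 1165 and 1304 on knockout-labelled arrays, against 767, 749.7 and 834 on wild-type-labelled arrays (log2 0.71, SE 0.08, adjusted p = 0.000157). Bcat2, the transaminase that opens the pathway, was not called, at -0.36 (adjusted p = 0.0833). With 1 array left out 12 to 14 genes of this list rose, and 1 was called lower without knockout-labelled replicate 1 or without wild-type-labelled replicate 3.

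In the citric acid cycle and pyruvate dehydrogenase 10 of 16 genes rose (62.5%, median 0.36, 7 to 10 with 1 array left out). Suclg1, the shared subunit of succinyl-CoA ligase, read 4524, 5292 and 6149.7 on knockout-labelled arrays, against 2998, 3356 and 3583 on wild-type-labelled arrays (log2 0.68, SE 0.11, adjusted p = 0.00115). Suclg2, its GTP-specific partner, rose as well (log2 0.55, SE 0.08, adjusted p = 0.000695). In mitochondrial fatty acid oxidation 12 of 18 genes rose (66.7%, median 0.41, 9 to 12 with 1 array left out). Acadl, the long-chain acyl-CoA dehydrogenase, read 472, 573 and 549 on knockout-labelled arrays, against 341, 365 and 317 on wild-type-labelled arrays (log2 0.71, SE 0.11, adjusted p = 0.000877). Decr1, the dienoyl-CoA reductase for unsaturated fatty acids, read 927, 985 and 947 on knockout-labelled arrays, against 518, 655 and 779.5 on wild-type-labelled arrays (log2 0.60, SE 0.13, adjusted p = 0.00741). Neither gene overlapped between labels. Cpt1b, the muscle-type carnitine palmitoyltransferase, rose on 1 probe (log2 0.69, SE 0.15, adjusted p = 0.00765) and read 0.27 on the other (adjusted p = 0.373). Among 37 genes for mitochondrial translation and protein import 17 rose (45.9%, median 0.26), among them Mrps5, a small-subunit ribosomal protein (log2 0.59, SE 0.14, adjusted p = 0.0117). That number was 10, 9 and 9 without knockout-labelled replicate 2, knockout-labelled replicate 3 and wild-type-labelled replicate 2, and 1 gene was called lower without wild-type-labelled replicate 3. Ribosomal proteins of the cytosol showed no such shift: 1 of 26 rose and 2 fell, with a median of 0.06, and each of those 3 calls was lost without at least 4 of the arrays in turn.

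The called markers of skeletal muscle moved the same way as the mitochondrial genes. Ldb3 and Itga7, muscle genes outside this list, were called lower. Of 10 measured skeletal muscle markers 4 rose and 0 fell, with a median log2 difference of 1.31, or 1.06 with Mylpf at its bound. Acta1, the skeletal muscle actin, read 1131, 1333 and 1811 on knockout-labelled arrays, against 624, 575 and 527 on wild-type-labelled arrays (log2 1.35, SE 0.15, adjusted p = 0.000109). Mylpf, a fast myosin light chain, was at least 1.545-fold higher on a probe below background on all 3 wild-type-labelled arrays (adjusted p = 0.00954, and 0.0538 with the mean of its probes, against 0.00114 to 0.041 under the others), while its other probe was above background on 1 of those arrays and was not called (0.91, adjusted p = 0.106). Atp2a1, the calcium pump of fast muscle, read 72.3, 127 and 339 on knockout-labelled arrays, against 65.9, 76.1 and 77.4 on wild-type-labelled arrays, and was not called (adjusted p = 0.0796). For Atp2a1, Mb and Tnnc1 the highest array was knockout-labelled replicate 3 and knockout-labelled replicate 1 lay near the wild-type-labelled values. The summed markers read 3847, 4574 and 6189 on the knockout-labelled arrays, against 2487, 2788 and 2837 on the wild-type-labelled arrays, and 7 of the 10 rose without knockout-labelled replicate 1. Ckm, Myh1, Myh4, Tnnt3, Pvalb and Myoz1, which also mark skeletal muscle, did not pass the background filter. On knockout-labelled replicates 1, 2 and 3 complex I summed to 151024, 151260 and 147049, the citric acid cycle to 34430, 34908 and 35085, fatty acid oxidation to 56325, 55778 and 56938, and the mitochondrial ribosome and import genes to 32075, 32704 and 33217. Replicate 3 was the lowest of the label for complex I and the highest for the other 3 lists. The part of muscle transcripts in the mitochondrial differences was not tested.

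**Figure D4:**
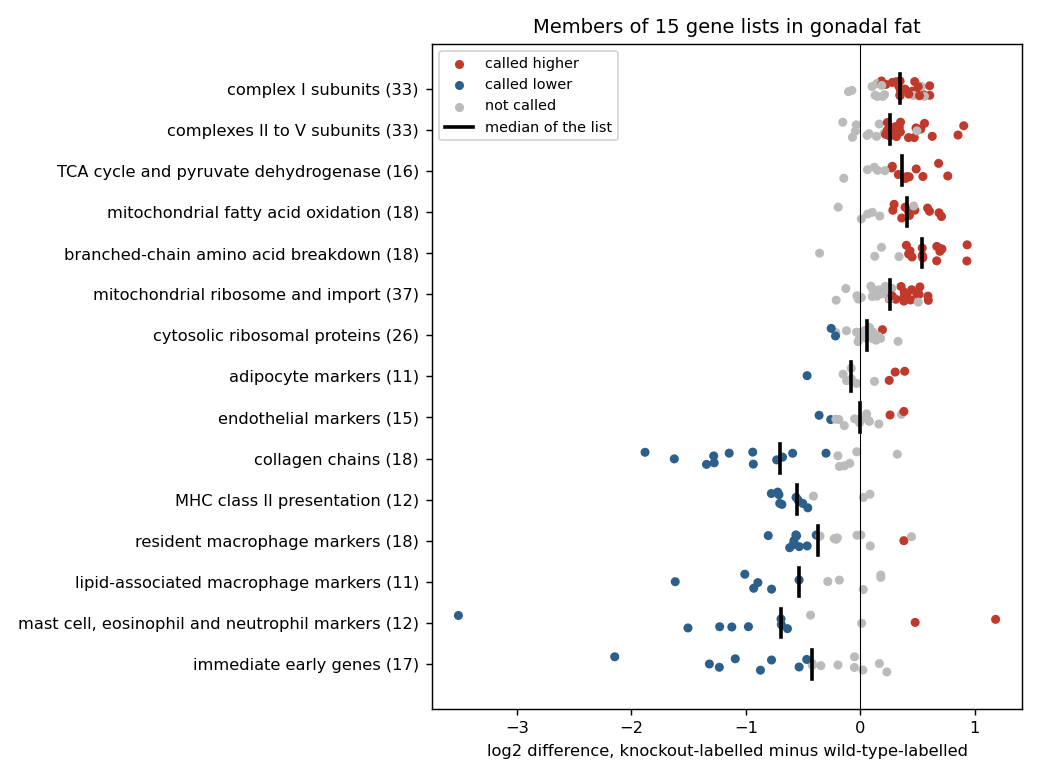
Log2 difference (knockout-labelled minus wild-type-labelled) of every measured member of 15 gene lists, with the number measured in brackets, red for members called higher, blue for members called lower, grey for the rest and a black bar at the list's median. The 5 lists of fuel oxidation and the respiratory chain have medians of 0.26 to 0.54 and no blue points, the ribosomal, adipocyte and endothelial lists lie around 0, and the collagen, antigen presentation and myeloid lists lie below it.

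Adipocyte identity genes as a group stayed near 0. Of 11 adipocyte markers 3 were called higher and 1 lower, with a median log2 difference of -0.08, and their summed intensity was 129651 to 133661 on knockout-labelled arrays, against 133592 to 139565 on wild-type-labelled arrays. Plin1, the perilipin that guards the lipid droplet, rose on its brighter probe (log2 0.39, SE 0.08, adjusted p = 0.00782), read -0.12 on the other and was not called with the mean of its probes (adjusted p = 0.432, against 0.0036 to 0.0408 under the others). Cidec, a droplet fusion protein, read 2796, 2555 and 3326 on knockout-labelled arrays, against 4213, 3889.5 and 3762 on wild-type-labelled arrays, and was lower without overlap (log2 -0.46, SE 0.10, adjusted p = 0.00541). Lep, the hormone leptin, read 15067, 15601 and 16139 on knockout-labelled arrays, against 12097, 13637 and 13637 on wild-type-labelled arrays (log2 0.25, SE 0.07, adjusted p = 0.0228), a call lost without knockout-labelled replicate 2 or 3 or wild-type-labelled replicate 1, without the filter or without an intensity trend (adjusted p 0.0114 to 0.103 over the settings tried). The number of markers called higher was 1 without knockout-labelled replicate 2. In such bulk tissue, fewer cells of a type and less RNA per cell cannot be told apart.

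Genes of lipid storage were called in both directions. In triglyceride assembly 4 of 13 rose and 2 fell, 46.2% against 24.8% of all genes (2 rose without knockout-labelled replicate 2, and 3 fell without wild-type-labelled replicate 1). Dgat2, which adds the last fatty acid, read 20643, 22802 and 22802 on knockout-labelled arrays, against 16482, 18925 and 16139 on wild-type-labelled arrays (log2 0.36, SE 0.08, adjusted p = 0.00635). Gpd1, which makes the glycerol phosphate backbone, read 1478, 1655 and 1769 on knockout-labelled arrays, against 2811, 2844 and 2866 on wild-type-labelled arrays, and fell (log2 -0.82, SE 0.08, adjusted p = 4.6e-05). Gpam, the mitochondrial acyltransferase that starts assembly, fell too (log2 -0.66, SE 0.09, adjusted p = 0.000351). In fatty acid synthesis 3 of 14 rose and 1 fell, a share of 28.6% that is close to that of all genes, among them Thrsp, a lipogenic nuclear protein, which rose at 5303, 6869.9 and 6481 on knockout-labelled arrays, against 3337, 3691 and 4319 on wild-type-labelled arrays (log2 0.72, SE 0.11, adjusted p = 0.00102). The other 3 calls of that list, Fasn, Acacb and Elovl6, were each lost without at least 2 of the arrays in turn: 1 rise was left without knockout-labelled or wild-type-labelled replicate 2, and the falls numbered 0 without knockout-labelled replicate 1 or 3 or wild-type-labelled replicate 2 and 2 without knockout-labelled replicate 2. Thrsp thus was the member whose call did not turn on 1 array.

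Uptake of fatty acids and control of lipolysis held several lower genes. Slc27a1, the transporter FATP1, read 1118, 1056 and 1085 on knockout-labelled arrays, against 2124, 2033 and 2063 on wild-type-labelled arrays (log2 -0.96, SE 0.07, adjusted p = 6.13e-06). Fabp5, a fatty acid binding protein of adipocytes and macrophages, fell as well (log2 -0.89, SE 0.19, adjusted p = 0.00599), and of the 13 uptake and binding genes 2 rose and 3 fell, the rises falling to 0 without knockout-labelled replicate 2 and to 1 without knockout-labelled replicate 3 or wild-type-labelled replicate 1 or 3. The share called in that list was 38.5%, against 24.8% of all genes. Hcar2, a receptor for ketone bodies and niacin that restrains lipolysis, read 828, 766 and 925 on knockout-labelled arrays, against 1500.4, 1698 and 1879 on wild-type-labelled arrays (log2 -1.05, SE 0.10, adjusted p = 4.91e-05). Hcar1, the lactate receptor with the same effect, read 1847, 1877 and 2325 on knockout-labelled arrays, against 3126, 3606 and 3120.2 on wild-type-labelled arrays (log2 -0.72, SE 0.10, adjusted p = 0.00049). Both receptors were lower without overlap. Prkaca, the catalytic subunit of protein kinase A, fell (log2 -0.50, SE 0.10, adjusted p = 0.00378), and Ptger3, a prostaglandin receptor that restrains lipolysis, rose (log2 1.07, SE 0.18, adjusted p = 0.00199), so that of 14 genes of lipolysis 3 rose and 4 fell (50% called, against 24.8% of all genes). Among droplet proteins 3 of 11 rose and 2 fell (1 rose without knockout-labelled replicate 2), and Plin2, the perilipin of small droplets, read 1152, 1099.6 and 1248 on knockout-labelled arrays, against 1625, 1516 and 1742 on wild-type-labelled arrays (log2 -0.50, SE 0.08, adjusted p = 0.00156).

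Targets of the PPAR nuclear receptors were split as well, with 5 of 15 higher and 3 lower (53.3% called, against 24.8% of all genes). Ech1, a peroxisomal and mitochondrial isomerase, read 9974, 9514 and 10008 on knockout-labelled arrays, against 6848, 7192 and 7058 on wild-type-labelled arrays (log2 0.49, SE 0.06, adjusted p = 0.000282). Pdk4, the kinase that shuts off pyruvate dehydrogenase, read 594, 525 and 627 on knockout-labelled arrays, against 1316, 1464 and 1370.3 on wild-type-labelled arrays, and fell without overlap (log2 -1.32, SE 0.09, adjusted p = 4.77e-06). The rises in this list numbered 2, 3 and 3 without knockout-labelled replicate 2, knockout-labelled replicate 3 and wild-type-labelled replicate 2. Of 9 measured brown and beige fat genes 4 rose and 0 fell (3 to 4 with 1 array left out), led by Cox8b. Ppargc1a, the coactivator that drives mitochondrial biogenesis, read 147, 137 and 135 on knockout-labelled arrays, against 95.6, 96.9 and 103 on wild-type-labelled arrays (log2 0.79, SE 0.13, adjusted p = 0.00179). Ucp1, the uncoupling protein that defines brown and beige adipocytes, did not pass the background filter, nor did Elovl3, Dio2 or Tmem26. Adipogenic transcription factors were called in both directions (3 higher and 4 lower of 20, with 1 higher without any array except knockout-labelled replicate 1, and 1 and 2 lower without knockout-labelled and wild-type-labelled replicate 2), Cebpb, an early regulator of adipogenesis, being lower at 2002, 1814 and 1897 on knockout-labelled arrays, against 3192, 2866 and 2693 on wild-type-labelled arrays (log2 -0.62, SE 0.08, adjusted p = 0.000324). The share called among these factors was 35%, against 24.8% of all genes.

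Secreted factors of fat cells changed in both directions, with 5 of 16 higher and 4 lower (56.2% called, against 24.8% of all genes). Nrg4, a neuregulin released by fat that acts on liver, read 2161, 2048 and 2437 on knockout-labelled arrays, against 689, 815 and 1032 on wild-type-labelled arrays (log2 1.45, SE 0.13, adjusted p = 3.28e-05). Agt, angiotensinogen, read 1426, 1131 and 1072 on knockout-labelled arrays, against 2819, 4052 and 3242 on wild-type-labelled arrays (log2 -1.51, SE 0.14, adjusted p = 3.03e-05). Retn, resistin, read 211, 177 and 195 on knockout-labelled arrays, against 356, 381 and 344 on wild-type-labelled arrays (log2 -1.08, SE 0.11, adjusted p = 8.43e-05). Nrg4 was higher and the other two lower on every knockout-labelled array. Mest, an imprinted gene linked to fat expansion, rose (log2 0.84, SE 0.14, adjusted p = 0.00153) and Vegfa, the angiogenic growth factor, fell (log2 -0.71, SE 0.15, adjusted p = 0.006). The rises numbered 3 without knockout-labelled replicate 2, knockout-labelled replicate 3 or wild-type-labelled replicate 1.

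In glucose metabolism the insulin-regulated transporter and part of glycolysis diverged. Slc2a4, the transporter GLUT4, read 1238, 1274 and 1282 on knockout-labelled arrays, against 842, 1017 and 870.4 on wild-type-labelled arrays (log2 0.50, SE 0.09, adjusted p = 0.00208). Pfkm, the muscle-type phosphofructokinase, rose (log2 0.49, SE 0.10, adjusted p = 0.00581) while Pfkp, the platelet-type form, fell on its brighter probe (log2 -0.68, SE 0.09, adjusted p = 0.0004). The other Pfkp probe was not called (-0.14, adjusted p = 0.479). Pkm, the pyruvate kinase of fat, read 2365, 2461 and 2319 on knockout-labelled arrays, against 4593, 4666 and 3870.0 on wild-type-labelled arrays (log2 -0.89, SE 0.08, adjusted p = 3.51e-05), and Aldoa, aldolase A, read 6038, 6156 and 5603 on knockout-labelled arrays, against 9894, 9836 and 9318 on wild-type-labelled arrays (log2 -0.71, SE 0.07, adjusted p = 3.51e-05). Of 18 genes of this list 5 rose and 3 fell (4 to 6 and 3 to 4 with 1 array left out), and of 20 genes of insulin signalling 5 rose and 3 fell, the falls being 1 without knockout-labelled replicate 2 or wild-type-labelled replicate 2. Akt2, the insulin-responsive Akt kinase, read 583, 551 and 558 on knockout-labelled arrays, against 235, 328 and 315 on wild-type-labelled arrays (log2 1.08, SE 0.14, adjusted p = 0.000278). Pik3r1, the regulatory subunit of PI3-kinase, read 4267, 3742 and 3148 on knockout-labelled arrays, against 5673, 5576 and 5562 on wild-type-labelled arrays (log2 -0.61, SE 0.10, adjusted p = 0.00127). On these probes every array of one label lay on the same side of every array of the other for both kinase genes. Of the other Pik3r1 probes, the brighter was called lower (-0.53, adjusted p = 0.00112) and the dimmer was not called (-0.07, adjusted p = 0.785). Cholesterol synthesis and uptake held 1 rise and 2 falls among 18 genes, a share of 16.7% against 24.8% of all genes, with 1 to 2 falls when 1 array was left out (1 without knockout-labelled replicate 2 or 3 or wild-type-labelled replicate 2). Sc5d, a late enzyme of cholesterol synthesis, rose (log2 0.87, SE 0.11, adjusted p = 0.000271) and Abcg1, a cholesterol exporter, fell (log2 -1.01, SE 0.14, adjusted p = 0.000486).

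Collagens were lower in the knockout-labelled arrays. Of 18 measured chains 12 fell and 0 rose (66.7%, against 12.2% of all genes called lower), with a median log2 difference of -0.70 and 11 to 12 falls when 1 array was left out. Col1a1, a chain of fibrillar type I collagen, read 1166, 1238 and 1290.4 on knockout-labelled arrays, against 3374, 3658 and 2312 on wild-type-labelled arrays (log2 -1.34, SE 0.14, adjusted p = 8.32e-05). Col1a2, its partner chain, read 105, 105 and 133 on knockout-labelled arrays, against 291, 241 and 245 on wild-type-labelled arrays (log2 -1.62, SE 0.17, adjusted p = 6.85e-05). Col5a3, a chain of type V collagen, read 151, 166 and 175 on knockout-labelled arrays, against 495, 529.9 and 437 on wild-type-labelled arrays (log2 -1.88, SE 0.12, adjusted p = 2.88e-06). Fibrillar chains, the basement membrane chains Col4a1 (-0.73), Col4a2 (-0.68), Col15a1 (-1.15) and Col18a1 (-0.59), and the pericellular chains Col6a1 (-1.28) and Col6a2 (-1.28) were all called lower. Col8a1 read 0.32 (adjusted p = 0.0721) and 1 chain was called higher without wild-type-labelled replicate 1, while the chains Col4a3, Col4a4, Col4a5, Col14a1 and Col16a1 gave -0.20 to -0.03 and were not called. The summed chains read 29442 to 31865 on knockout-labelled arrays, against 49510 to 60601 on wild-type-labelled arrays, in background-corrected intensity.

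Fibroblast markers other than collagens did not fall together. Pi16, a marker of fibroblast progenitors, read 1723, 1698 and 1605 on knockout-labelled arrays, against 780.1, 892 and 966 on wild-type-labelled arrays, and rose (log2 0.97, SE 0.09, adjusted p = 3.53e-05). Cd248, endosialin of stromal cells, rose (log2 0.51, SE 0.09, adjusted p = 0.00293), whereas Dpt, dermatopontin, read 1499.6, 1623 and 1822 on knockout-labelled arrays, against 3036, 2901 and 2698 on wild-type-labelled arrays, and fell (log2 -0.82, SE 0.09, adjusted p = 7.98e-05). Of 12 fibroblast and progenitor markers, which include Col1a1 and Col3a1, 4 rose and 4 fell, and 2 rose without replicate 1 or 2 of either label. Their sum was 32627 to 34343 on knockout-labelled arrays, against 37447 to 39212 on wild-type-labelled arrays, and its part in the collagen values was not tested.

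Further matrix genes were called in both directions, more often lower. Of 26 matricellular and elastic fibre genes 3 rose and 6 fell, led by Thbs1 (2 to 4 rises and 4 to 6 falls with 1 array left out). The share called was 34.6%, against 24.8% of all genes, and the rises were near the 12.6% of all genes. Ccn1, a matricellular protein induced by stretch and growth factors, read 255, 341 and 334 on knockout-labelled arrays, against 774, 569.5 and 471 on wild-type-labelled arrays (log2 -1.06, SE 0.18, adjusted p = 0.00215). Of the other Ccn1 probes, the brighter was called lower (-1.01, adjusted p = 0.00472) and the dimmer was not called (-0.44, adjusted p = 0.242). Lox, lysyl oxidase, which crosslinks collagen, read 829, 804 and 846 on knockout-labelled arrays, against 1144, 1204 and 1428 on wild-type-labelled arrays (log2 -0.63, SE 0.09, adjusted p = 0.00076). Mfap5, a microfibril protein, was higher at 2003, 2345 and 2304 on knockout-labelled arrays, against 1372, 1409.9 and 1407 on wild-type-labelled arrays (log2 0.68, SE 0.08, adjusted p = 0.000153). Among matrix proteases and inhibitors 2 of 21 rose and 6 fell, and the labels separated without overlap for Mmp2, gelatinase A, at 3444, 3188 and 2868 on knockout-labelled arrays, against 5005, 4940.5 and 5039 on wild-type-labelled arrays (log2 -0.67, SE 0.08, adjusted p = 0.000142), and for Timp1, an inhibitor of these proteases (log2 -0.79, SE 0.11, adjusted p = 0.000454). Timp4, the inhibitor most abundant in fat and heart, read 4975, 4555 and 4536 on knockout-labelled arrays, against 2468, 2723 and 2385 on wild-type-labelled arrays, and rose (log2 0.91, SE 0.07, adjusted p = 1.7e-05).

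Adhesion receptors and TGF-beta signalling held more called falls than called rises, though the TGF-beta list had a median near 0. Integrins and laminins had 3 rises and 8 falls among 24 genes, 5 falls without knockout-labelled replicate 2 or 3 or wild-type-labelled replicate 2. The median of that list was -0.17, with 45.8% called against 24.8% of all genes. Itgb7, an integrin chain of leukocytes, read 121, 117 and 118 on knockout-labelled arrays, against 184, 182 and 184 on wild-type-labelled arrays (log2 -0.90, SE 0.12, adjusted p = 0.000349). Itga7, the laminin-binding integrin chain of muscle, read 791, 885 and 737 on knockout-labelled arrays, against 1295, 1494 and 1159.8 on wild-type-labelled arrays (log2 -0.74, SE 0.11, adjusted p = 0.000673). Itgb5, a vitronectin receptor chain, rose (log2 0.49, SE 0.10, adjusted p = 0.00604). Tgfb1, the cytokine TGF-beta 1, read 309, 297 and 236 on knockout-labelled arrays, against 620.1, 663 and 475 on wild-type-labelled arrays (log2 -1.19, SE 0.15, adjusted p = 0.000328). Inhba, the subunit of activin A, fell as well (log2 -0.80, SE 0.18, adjusted p = 0.00816). Of 19 genes of TGF-beta signalling 2 rose and 6 fell (42.1% called). The list had a median log2 difference of 0.00, and 10 of its 19 members were positive. The rises, Acta2 and Tgfb2, numbered 0 without knockout-labelled replicate 2 or wild-type-labelled replicate 2 and 1 without knockout-labelled replicate 1 or 3 or wild-type-labelled replicate 1.

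Macrophage genes were lower in the knockout-labelled arrays. Of 18 markers of resident macrophages 9 fell and 1 rose, with a median log2 difference of -0.37, and 8 to 10 fell when 1 array was left out, while the rise, Lyve1, a hyaluronan receptor, was lost with each of the 6 arrays left out in turn (adjusted p 0.0264 to 0.166 over the settings tried). Retnla, a secreted marker of alternatively activated macrophages, read 7752, 7722 and 8936 on knockout-labelled arrays, against 12824, 15114 and 14598 on wild-type-labelled arrays (log2 -0.80, SE 0.08, adjusted p = 7.61e-05). Mrc1, the mannose receptor, read 1971, 1928 and 1634 on knockout-labelled arrays, against 2268, 3087 and 2943 on wild-type-labelled arrays (log2 -0.59, SE 0.12, adjusted p = 0.00449). Other defining markers were not called: Adgre1, which encodes F4/80, read -0.23 (adjusted p = 0.278), Cd163, the haemoglobin scavenger receptor, -0.03 (adjusted p = 0.86) and Lyz2, lysozyme, -0.21 (adjusted p = 0.0624). The markers summed to 26793 to 28825 on knockout-labelled arrays, against 36063 to 42661 on wild-type-labelled arrays.

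The set that marks lipid-associated macrophages had 6 of 11 members lower and 0 higher, with a median of -0.53 and 6 to 7 falls when 1 array was left out. Their sums overlapped, at 51645, 49589 and 54327 on the knockout-labelled arrays, against 54138, 61414 and 61476 on the wild-type-labelled arrays. Lgals3, galectin-3, read 2028, 2868 and 3522 on knockout-labelled arrays, against 8017, 8137 and 8759 on wild-type-labelled arrays (log2 -1.62, SE 0.15, adjusted p = 4.58e-05). Trem2, the lipid receptor that defines these cells, read 241, 262 and 281 on knockout-labelled arrays, against 427, 509 and 508 on wild-type-labelled arrays (log2 -1.01, SE 0.11, adjusted p = 0.000121). Gpnmb, a lysosomal glycoprotein, read 361, 541 and 641 on knockout-labelled arrays, against 825, 843 and 1088 on wild-type-labelled arrays (log2 -0.93, SE 0.19, adjusted p = 0.00611), a call lost with robust eBayes (adjusted p = 0.0772, against 8.89e-04 to 0.0306 under the others). Lgals3 and Gpnmb were lowest on knockout-labelled replicate 1 and highest on replicate 3 of that label, and no value reached the wild-type-labelled range. Fat cells also express some members of this set. Of these, Lpl, lipoprotein lipase, gave 0.03 (adjusted p = 0.853) and Apoe, apolipoprotein E, 0.18 (adjusted p = 0.24), neither called, while Fabp5 was called lower.

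Antigen presentation by MHC class II fell across most of its genes, 9 of 12 measured (75.0%) with 0 rises, a median of -0.55 and 7 to 9 falls when 1 array was left out. H2-Ab1, a chain of the class II molecule I-A, read 4098, 4337 and 4621 on knockout-labelled arrays, against 7402, 8044 and 6856 on wild-type-labelled arrays (log2 -0.78, SE 0.08, adjusted p = 5.98e-05). Cd74, the invariant chain that guides class II molecules, read 7686, 7265 and 7022 on knockout-labelled arrays, against 11424, 12899 and 11424 on wild-type-labelled arrays (log2 -0.70, SE 0.07, adjusted p = 6.73e-05). Lgmn, a lysosomal protease that processes antigen, read 2621, 2680.3 and 2671 on knockout-labelled arrays, against 4166, 4713 and 4202 on wild-type-labelled arrays (log2 -0.72, SE 0.07, adjusted p = 5.02e-05). The labels did not overlap for any of these. Ciita, the transcriptional master regulator of class II genes, fell on a dim probe (log2 -0.69, SE 0.19, adjusted p = 0.0222). Complement and coagulation genes were lower in 10 of 23 cases and higher in 1 (8 to 11 falls with 1 array left out, and 2 rises without replicate 1 of either label), and the C1q chains C1qa (-0.56), C1qb (-0.46) and C1qc (-0.62), made by macrophages, fell together. C7, a component of the membrane attack complex, read 769, 611 and 605 on knockout-labelled arrays, against 1143, 1058 and 955 on wild-type-labelled arrays (log2 -0.71, SE 0.11, adjusted p = 0.00112), and Cd59a, which blocks that complex, rose (log2 0.36, SE 0.08, adjusted p = 0.00648).

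Granulocyte and mast cell genes had the largest relative difference in summed intensity among the cell type lists. Their 12 measured markers summed to 1517 to 1817 on knockout-labelled arrays, against 5435 to 6587 on wild-type-labelled arrays, with 8 lower and 2 higher and a median of -0.69. Rnase2a makes up most of that sum on the wild-type-labelled arrays. Tpsb2, a mast cell tryptase, read 169, 179 and 157 on knockout-labelled arrays, against 380.0, 481 and 342 on wild-type-labelled arrays (log2 -1.51, SE 0.14, adjusted p = 4.28e-05). Mcpt4, a mast cell chymase, read 181, 189.6 and 179 on knockout-labelled arrays, against 313, 364 and 284 on wild-type-labelled arrays (log2 -0.98, SE 0.12, adjusted p = 0.000277). Tpsab1 (-1.12), a second tryptase whose probe may share transcripts with Tpsb2, Cma1 (-0.69), another chymase, and Cpa3 (-0.69), mast cell carboxypeptidase, fell too. Kit, the stem cell factor receptor on mast cells, read 285, 307 and 266 on knockout-labelled arrays, against 297, 298 and 257 on wild-type-labelled arrays, and was not called (log2 0.01, adjusted p = 0.954). Retnlg, a neutrophil resistin-like protein, fell (log2 -1.23, SE 0.19, adjusted p = 0.00115), whereas S100a8, a calcium-binding protein of neutrophils, read 299, 356 and 376 on knockout-labelled arrays, against 135, 193 and 209 on wild-type-labelled arrays, and rose (log2 1.18, SE 0.20, adjusted p = 0.00161). Its partner S100a9, below background on the wild-type-labelled arrays, was at least 1.07-fold higher (adjusted p = 0.0405), a call lost with each of the 6 arrays left out in turn (adjusted p 0.0125 to 0.121 over the settings tried). The eosinophil genes Epx, Prg2, Siglecf and Ccr3 did not pass the background filter.

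Chemokine genes were called in both directions, 5 of 27 higher and 6 lower (40.7% called, against 24.8% of all genes). Cxcl9, a T cell attractant induced by interferon gamma, read 638, 576 and 606 on knockout-labelled arrays, against 231, 284 and 251 on wild-type-labelled arrays (log2 1.41, SE 0.11, adjusted p = 9.26e-06). Cxcl10, its relative, was at least 1.395-fold higher (adjusted p = 0.00139) and was below background on the wild-type-labelled arrays. Ccl11, eotaxin, which attracts eosinophils, read 2414, 2338 and 2628 on knockout-labelled arrays, against 1564, 1744 and 1741 on wild-type-labelled arrays, and rose (log2 0.56, SE 0.08, adjusted p = 0.000497). Ccl8, a monocyte attractant of macrophages, read 383, 405 and 727 on knockout-labelled arrays, against 1013, 1212 and 1346 on wild-type-labelled arrays (log2 -1.38, SE 0.22, adjusted p = 0.00118). Ccl9, another CC chemokine, read 2072, 2128 and 2378 on knockout-labelled arrays, against 4092, 4224 and 4233 on wild-type-labelled arrays (log2 -0.95, SE 0.07, adjusted p = 9.26e-06), and Ccl6, a related chemokine, fell with it (log2 -0.71, SE 0.10, adjusted p = 0.000736). Rises and falls alike had no overlap between labels in these 6 genes. The rises numbered 3 without knockout-labelled replicate 2 or 3 or wild-type-labelled replicate 2. Interferon-stimulated genes had 1 rise and 2 falls among 20 genes, a share of 15%, under the 24.8% of all genes. The rise was Ifit3, an antiviral protein (log2 0.66, SE 0.14, adjusted p = 0.0058). Oas2, a sensor of double-stranded RNA, was the larger fall (log2 -1.06, SE 0.16, adjusted p = 0.00107). The rises numbered 2 without knockout-labelled replicate 3 or wild-type-labelled replicate 2, and the falls numbered 1 without replicate 2 or 3 of either label. Lymphocyte markers had 1 rise and 1 fall among 8 (25%, close to the share of all genes), each lost without several arrays. Their sum was 2945 to 3120 on knockout-labelled arrays, against 2986 to 3069 on wild-type-labelled arrays.

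Acute phase genes and protease inhibitors were called in both directions, with 9 of 17 lower and 3 higher (median -0.28; 6 to 9 and 2 to 3 with 1 array left out). The rises were Serpina1b, Serpina1d and Saa3, a serum amyloid A of macrophages and fat cells, which read 204, 227 and 395 on knockout-labelled arrays, against 139, 166 and 183 on wild-type-labelled arrays (log2 0.88, SE 0.25, adjusted p = 0.0263). The call of Saa3 was lost without knockout-labelled replicate 3 or wild-type-labelled replicate 1 or 2, without an intensity trend and with robust eBayes (adjusted p 0.00441 to 0.138 over the settings tried). Orm2 and its near-identical copy Orm1 (-0.70) fell, as did Saa1, so the serum amyloid genes differed in direction. Il1rn, the natural antagonist of interleukin-1, read 82.3, 82.7 and 75.1 on knockout-labelled arrays, against 108, 124 and 119 on wild-type-labelled arrays (log2 -1.02, SE 0.16, adjusted p = 0.000991). Socs3, an inhibitor of cytokine signalling, read 286, 317 and 284 on knockout-labelled arrays, against 629, 479 and 552 on wild-type-labelled arrays (log2 -1.01, SE 0.12, adjusted p = 0.000158). Both were lower on every knockout-labelled array. Haptoglobin, Hp, was not called (log2 0.07, adjusted p = 0.49).

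Immediate early genes, which respond within minutes to stimulation or handling, were lower in 8 of 17 cases with 0 rises (47.1%, median -0.42, 7 to 9 falls with 1 array left out). Fosb was the largest fall. Egr1, a zinc finger factor of the same response, read 1424, 1952 and 2233 on knockout-labelled arrays, against 4940.5, 3476 and 3368 on wild-type-labelled arrays (log2 -1.09, SE 0.17, adjusted p = 0.0011). Junb, an AP-1 subunit, read 386, 417 and 391 on knockout-labelled arrays, against 1297, 804 and 646 on wild-type-labelled arrays (log2 -1.23, SE 0.20, adjusted p = 0.0015). Wild-type-labelled replicate 1 was the highest array for Fos, Fosb, Junb and Egr1, and the other two wild-type-labelled arrays still exceeded every knockout-labelled one. Fos itself read 268, 472 and 519.8 on knockout-labelled arrays, against 1526, 727 and 742 on wild-type-labelled arrays (log2 -1.32, SE 0.31, adjusted p = 0.0107), a call lost with robust eBayes (adjusted p = 0.143, against 0.00703 to 0.0427 under the others). Zfp36, which destabilises cytokine mRNAs, read 1463, 1483 and 1502 on knockout-labelled arrays, against 2952, 2545 and 2553 on wild-type-labelled arrays (log2 -0.87, SE 0.08, adjusted p = 2.66e-05). Jun read -0.05 and Myc -0.20, neither called (adjusted p 0.789 and 0.409), and 1 rise was called without knockout-labelled replicate 1.

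Stress, clock and proliferation genes gave smaller or divided differences. Among antioxidant enzymes 9 of 24 rose and 5 fell (5 rose without knockout-labelled replicate 2), a share of 58.3% against 24.8% of all genes. Gsta4, a glutathione transferase that clears lipid peroxidation products, read 1929.9, 1577 and 1655 on knockout-labelled arrays, against 665, 709 and 808 on wild-type-labelled arrays (log2 1.29, SE 0.10, adjusted p = 1.13e-05). Sod3, the extracellular superoxide dismutase, read 981, 847 and 863 on knockout-labelled arrays, against 1967, 2136 and 1598 on wild-type-labelled arrays (log2 -1.11, SE 0.11, adjusted p = 5.4e-05). Mt1, the metal-binding metallothionein 1, read 18716, 19510 and 18537 on knockout-labelled arrays, against 32084, 28622 and 27571 on wild-type-labelled arrays (log2 -0.64, SE 0.07, adjusted p = 0.00012), and Mt2 fell with it (log2 -1.11, SE 0.13, adjusted p = 0.000154). The glutathione transferase rose where the secreted dismutase and the metallothioneins fell. In the clock list 4 of 13 rose and 1 fell (38.5% called). Dbp, a clock output factor, read 6659, 6230.5 and 6508 on knockout-labelled arrays, against 4127, 4734 and 5005 on wild-type-labelled arrays (log2 0.49, SE 0.08, adjusted p = 0.00131), and Per1, a period gene also induced by acute stimuli, fell (log2 -0.52, SE 0.10, adjusted p = 0.0035). A dim Per1 probe near background was not called (0.03, adjusted p = 0.936). The clock rises numbered 1 without knockout-labelled replicate 2 and 2 without knockout-labelled replicate 3 or wild-type-labelled replicate 1 or 2. In the unfolded protein response 2 of 18 rose and 4 fell (33.3% called), and the falls numbered 0 to 3 with 1 array left out (0 or 1 without any array except wild-type-labelled replicate 1). The rises of that list were near the 12.6% of all genes. Trib3, a stress-induced pseudokinase, rose on its brightest probe (log2 0.85, SE 0.13, adjusted p = 0.000972), with its other probes at 0.63 and -0.13. Cell cycle genes had 1 rise and 3 falls among 22, a share of 18.2%, under the 24.8% of all genes. Cdkn1a, the cell cycle inhibitor p21, was the largest fall, at 319.6, 331 and 349 on knockout-labelled arrays, against 669, 595 and 658 on wild-type-labelled arrays (log2 -1.04, SE 0.09, adjusted p = 2.54e-05). The rise, Cdk1, was lost without knockout-labelled replicate 2 or wild-type-labelled replicate 2 (adjusted p 0.00337 to 0.0653 over the settings tried).

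Markers of other cells of the depot and its surroundings were set beside these results. Of 13 mural and smooth muscle markers 6 rose and 2 fell (61.5% called, against 24.8% of all genes), with a sum of 31422, 29056 and 19153 on the knockout-labelled arrays, against 17462, 15532 and 15837 on the wild-type-labelled arrays. Des, desmin of the muscle cytoskeleton, read 568, 603 and 405 on knockout-labelled arrays, against 291, 285 and 289.8 on wild-type-labelled arrays (log2 0.95, SE 0.14, adjusted p = 0.000959). Cspg4, the pericyte proteoglycan NG2, read 229.5, 256 and 221 on knockout-labelled arrays, against 454, 597 and 569 on wild-type-labelled arrays, and fell (log2 -1.36, SE 0.13, adjusted p = 3.52e-05). Desmin was higher and NG2 lower on every knockout-labelled array, and the marker sum was lowest on replicate 3 of that label. The rises numbered 3 without knockout-labelled replicate 2 or wild-type-labelled replicate 2, and Myh11, the smooth muscle myosin, was not called without knockout-labelled replicate 1 or 2 or wild-type-labelled replicate 2, without an intensity trend or with robust eBayes (adjusted p 3.38e-05 to 0.171 over the settings tried). The falls numbered 1 without any array except wild-type-labelled replicate 3.

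Endothelial markers stayed near 0 (2 higher and 2 lower of 15, 26.7% against 24.8% of all genes, median 0.00). Their sums were 16208 to 17675 on knockout-labelled arrays, against 16428 to 17940 on wild-type-labelled arrays. Those 4 calls, Cldn5 and Lyve1 higher and Pecam1 and Vwf lower, were each lost without at least 3 of the arrays in turn. Of 14 duct and gland epithelium markers 3 rose (21.4%, against 12.6% of all genes), Fxyd4, Aqp2 and Cldn4, and 0 fell. Their sum was 2875, 2480 and 1806 on the knockout-labelled arrays, against 2935, 1354 and 1395 on the wild-type-labelled arrays, where replicate 1 stood apart, and 5 rose without that array, while 1 fell without wild-type-labelled replicate 3. Krt8, a keratin of simple epithelia, gave -0.22 (adjusted p = 0.439), and Epcam, the general epithelial adhesion molecule, did not pass the filter. Among 6 stratified epithelium markers Krt14 rose and Krt79 and Cdsn fell, while Krt5, the partner of Krt14, did not pass the filter, and 2 rose without wild-type-labelled replicate 1. Of 10 mesothelial markers 1 rose and 1 fell (20%, under the 24.8% of all genes). The fall was Cldn15, a claudin of the mesothelium, at 667, 633 and 658 on knockout-labelled arrays, against 1619, 1684 and 1536 on wild-type-labelled arrays (log2 -1.37, SE 0.07, adjusted p = 1.26e-06). Without wild-type-labelled replicate 3, 2 rose, and without knockout-labelled replicate 2 or 3 or wild-type-labelled replicate 2, 0 rose. Of 6 nerve and Schwann cell markers 2 rose and 0 fell, with Uchl1, a neuronal ubiquitin hydrolase, at 166, 122 and 142 on knockout-labelled arrays, against 99.5, 108 and 95.5 on wild-type-labelled arrays (log2 0.77, SE 0.17, adjusted p = 0.0086), and 1 rose without any knockout-labelled array in turn or without wild-type-labelled replicate 3. Of 4 erythroid markers 0 were called and their sums overlapped, at 28392 to 31612 on knockout-labelled arrays, against 29407 to 31258 on wild-type-labelled arrays, though 1 rose without knockout-labelled replicate 1 or wild-type-labelled replicate 3. Of 4 measured lens crystallins 2 rose, Crygc and Cryab, the second a small heat shock protein found in many tissues (log2 0.33, SE 0.08, adjusted p = 0.011, not called without knockout-labelled replicate 2, adjusted p 0.00504 to 0.0646 over the settings tried). The female transcript Xist and the Y-linked Kdm5d, Uty and Eif2s3y were not called either (adjusted p 0.452 to 0.992), and all 4 were dim. The part of these other cells in the differences above was not tested.

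**Figure D5:**
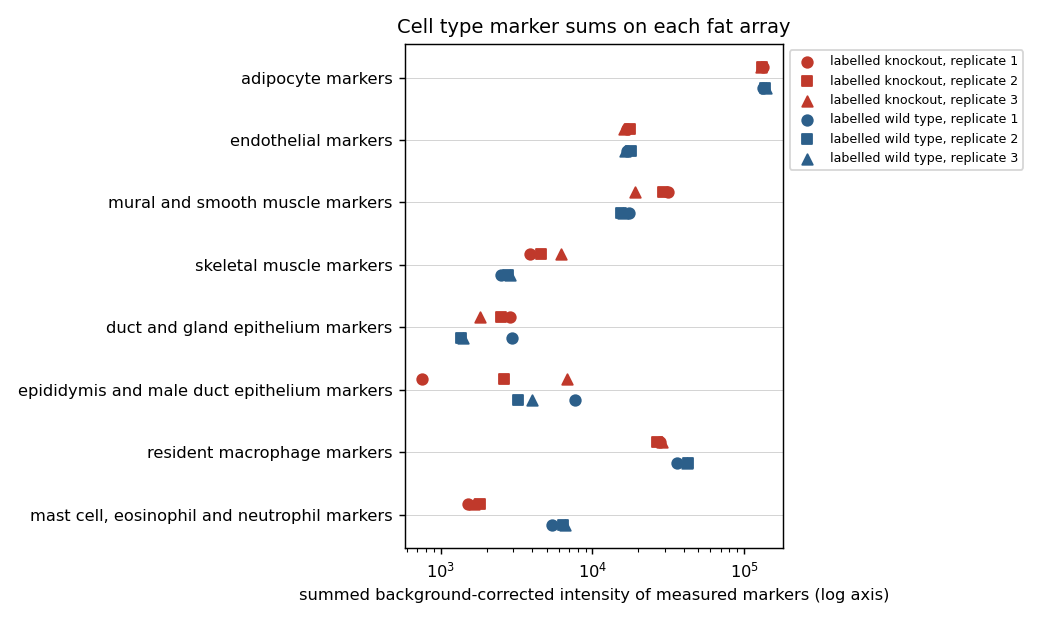
Summed background-corrected intensity (log axis) of the measured markers of 8 cell types on each fat array, knockout-labelled replicates in red above wild-type-labelled replicates in blue, with a different symbol for each replicate number. Endothelial sums overlap between labels, and adipocyte sums overlap narrowly, knockout-labelled replicates 2 and 3 lying slightly below every wild-type-labelled array. Resident macrophage and mast cell, eosinophil and neutrophil sums are lower on all 3 knockout-labelled arrays, and the epididymis sums spread from 754 to 7667 with no separation.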

How the data were processed

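Gene expression was measured on Illumina bead arrays from biotin-labelled cRNA, after Trizol and RNeasy extraction per the labels' protocols, which for fat speak of collected livers. The deposited table holds intensity values per probe, already normalized by the authors: sorted intensities of the fat arrays differed by at most 1.22%. Software and method: not given in the sources used here. Another 48 columns, named by chip position, matched no sample and were not used.

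The 6 fat arrays were background-corrected by normexp with 1523 receptor probes as negative controls (offset 16) and log2-transformed. Of 45281 probes, 34885 had 1 gene symbol, 18 several and 10378 none, and 34807 were matched to current symbols by Entrez identifier. The fit used limma 3.58.1 in R 4.3.3 (lmFit, eBayes with an intensity trend), two-sided, Benjamini-Hochberg adjusted over 18147 probes. An adjusted p in the text comes from it unless another setting, an omitted array or a range over settings is named. Those come from limma refits under that setting, adjusted over the probes or genes of the refit. On simulated data with independent normal noise for each probe, 200 of the 18147 probes were changed. The fit recovered 83 of 100 changed by 1 log2 unit and 97 of 100 changed by 2, and 10 of its calls (5.26%) were false. Differences under 1 log2 unit and noise shared by the probes of an array were not simulated. A gene is represented by its tested probe of highest mean, with p adjusted over all probes. The number of arrays, 3 per label, limits the precision.

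Deviations of same-numbered arrays from their label mean correlated at 0.0172, -0.00578 and 0.145, and those of different numbers at -0.162 to 0.153. With 3 arrays per label these values cannot settle whether replicate numbers pair the samples.

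Members and lists were chosen with earlier results of these data known. Genes were named by rule: measured caveola genes, 15 genes with the largest rise and 15 with the largest fall, all without overlap (unannotated symbols passed over), up to 3 called members per list and direction, and called neighbours of Cav1. Others, such as Gpx5, Kit, Egr1, Cd74, Mcpt4, the C1q chains, several collagens and uncalled list members, were added after their values were seen. Alternatives changed the background, filter, probe summary, eBayes settings, weights, normalization, threshold, replicate block and arrays included. Probes of near-identical families (Serpina1, Orm, Saa, tryptases, glutathione transferases) may read each other's transcripts.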

Additional observations from a re-analysis of the deposited data

Results flagged for a closer look

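Cav1 ran in opposite directions in the 2 tissues. The ratio of knockout-labelled to wild-type-labelled mean intensity was 143 in gonadal fat, where all 3 knockout-labelled arrays were higher, and 0.623 in liver, where all 3 knockout arrays were lower. The difference between tissues was not tested, since the tissues were normalized separately.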

How the results depend on the processing

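The log2 difference of Cav1 was 7.09 to 7.92 under the settings tried, with a limma adjusted p of at most 2.03e-08. The percentage of called genes that were higher was 46.9 to 52.6. At an adjusted p under 0.01 the called genes numbered 1378 (670 higher and 708 lower) and the called probes 1948 (903 higher and 1045 lower). With 1 array left out, the probes tested being held fixed, 1670 to 2718 genes were called, 783 to 1429 higher and 849 to 1301 lower, and 2440 to 3861 probes, 1112 to 1967 higher and 1244 to 1894 lower; fewer samples enter these fits. With the replicate number as a block 2824 genes were called, 1430 higher and 1394 lower. Both ways of summarising probes by gene give no probe count. Of 212 named genes called, 146 to 212 were still called under each setting and 0 changed sign. The uncalled Pacsin1 was 0.0908 with the mean of its probes and 0.0352 with array weights. Among uncalled genes with 1 array left out, Cavin2 ranged from -0.173 to 0.015, Ehd2 from -0.167 to 0.0108, Pacsin1 from -0.175 to 0.104 and Kdm5d from -0.376 to 0.00952. The cause of these sign changes was not tested. Probes near background, under an intensity of about 70.4 to 73.8, have little range left for a fall.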

Other observations

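Within-label spread was small for most genes, with a median SD of 0.139 on the log2 scale, but 178 genes exceeded 0.5 and 69 exceeded 1. The most variable genes are products of the epididymis and seminal vesicle. AY761185, a defensin-like transcript, read 50.7, 94.5 and 373 on knockout-labelled replicates 1, 2 and 3, against 10405, 154 and 149 on the wild-type-labelled ones. Svs4, a seminal vesicle secretory protein, read 258, 59.2 and 57.6 on the knockout-labelled replicates, against 525, 1526 and 53.1 on the wild-type-labelled ones. Wfdc15b, a small secreted WAP-domain protein, read 618, 508 and 325 on the knockout-labelled replicates, against 7108, 101 and 139 on the wild-type-labelled ones. None of these 3 genes was called between labels over all 6 arrays, although Svs4 was called lower without wild-type-labelled replicate 3 (limma adjusted p = 0.00775) and with array weights (limma adjusted p = 0.0419), against 0.21 over all arrays.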
